A study of Homo sapiens with 2 samples.

Results

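The genes of homologous recombination and of the Fanconi anaemia pathway were followed in a gefitinib-resistant lung cancer line and in the line it came from. All 30 genes of the set were found by symbol among the 20985 genes of the RNA-seq table, and all 30 passed the minimum level of 1 used for an expressed gene, as 13777 genes did. HCC827 is an established human lung adenocarcinoma line driven by mutant EGFR, and gefitinib blocks the kinase of that receptor. The resistant group, HCC827 ZDR3, was derived by keeping HCC827 cells in gefitinib, at first at 10 nM for 1 month and then with 3-fold steps each month until 1 µM. At that dose 3 colonies were picked, so the line may stem from few cells, and the labels do not say whether the drug was present at harvest. The other group was parental HCC827. Each group held 1 library of polyadenylated RNA. With 1 library per line the spread between cultures is unknown. No p-value can therefore be given, and each difference below is one between these 2 libraries.

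Homologous recombination repairs DNA breaks by copying an intact sister chromatid. It works in S and G2 phase, when that copy exists, and many of its genes are transcribed in those phases. Broken ends are resected to single strands, BRCA1, PALB2 and BRCA2 prepare them to invade the sister strand, and motor proteins and helicases complete and then resolve the exchange. The Fanconi pathway clears crosslinks between DNA strands: a core complex attaches ubiquitin to FANCD2 and FANCI, which call in nucleases and the recombination machinery. The kinases ATM and ATR sense the damage and act through CHEK2 and CHEK1.

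The resistant library held 243549870 gene reads and the parental library 257192607. Levels are given as normalised reads per gene, with 1 unit worth 138 reads in the resistant and 143 reads in the parental library. They are not corrected for gene length, so genes are compared with each other only per kilobase of exon. Log2 ratios are those of the resistant over the parental level, each raised by 1 unit beforehand. Each interval is an exact 95% Clopper-Pearson interval for the plain ratio, without the added unit, and covers counting error only. As cells were lysed in bulk, fewer cells in a given phase cannot be told apart from less RNA per cell. All 5 epithelial markers (EPCAM, CDH1, KRT8, KRT18 and KRT19) were expressed in both libraries, with a summed level of 3619.6 in resistant and 11489.6 in parental cells. The lung lineage factor NKX2-1 was at 9.33 in resistant and 95.0 in parental cells. Of the other lung lineage markers, NAPSA was at 6.11 in resistant and 27.5 in parental cells. SFTPB was below the minimum level in both and not lower, at 0.480 in resistant and 0.413 in parental cells. Summed markers of leukocytes (0.436 and 1.98), fibroblasts (1.87 and 9.51) and endothelium (0.0654 and 0.315) were far below the epithelial sum in resistant and parental cells. They were not all absent. COL1A1 was at 1.76 in resistant and 9.15 in parental cells, and CD14 at 0.203 in resistant and 1.88 in parental cells. CD3E had 0 reads in both libraries.

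Most genes of the set were lower in resistant cells. Of the 30 genes 17 were at least 1.5-fold lower, against 18.7% of all expressed genes, and 1 was at least 1.5-fold higher, against 18.8%. At the stricter limit 6 were at least 2-fold lower, against 9.68% of expressed genes, and 0 at least 2-fold higher, against 10.6%. The log2 ratio was below 0 for 22 genes and above 0 for 8, against 52.2% and 47.8% of expressed genes. The median of the set was -0.68 and that of all expressed genes -0.03. Together the genes took 751 reads per 1000000 gene reads in resistant and 1090.3 in parental cells. The 6 genes at least 2-fold lower were RAD51AP1, CHEK2, RAD54B, RAD54L, FANCD2 and BARD1, and the genes at the higher end were RAD50, FANCA and ATR.

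**Figure D1:**
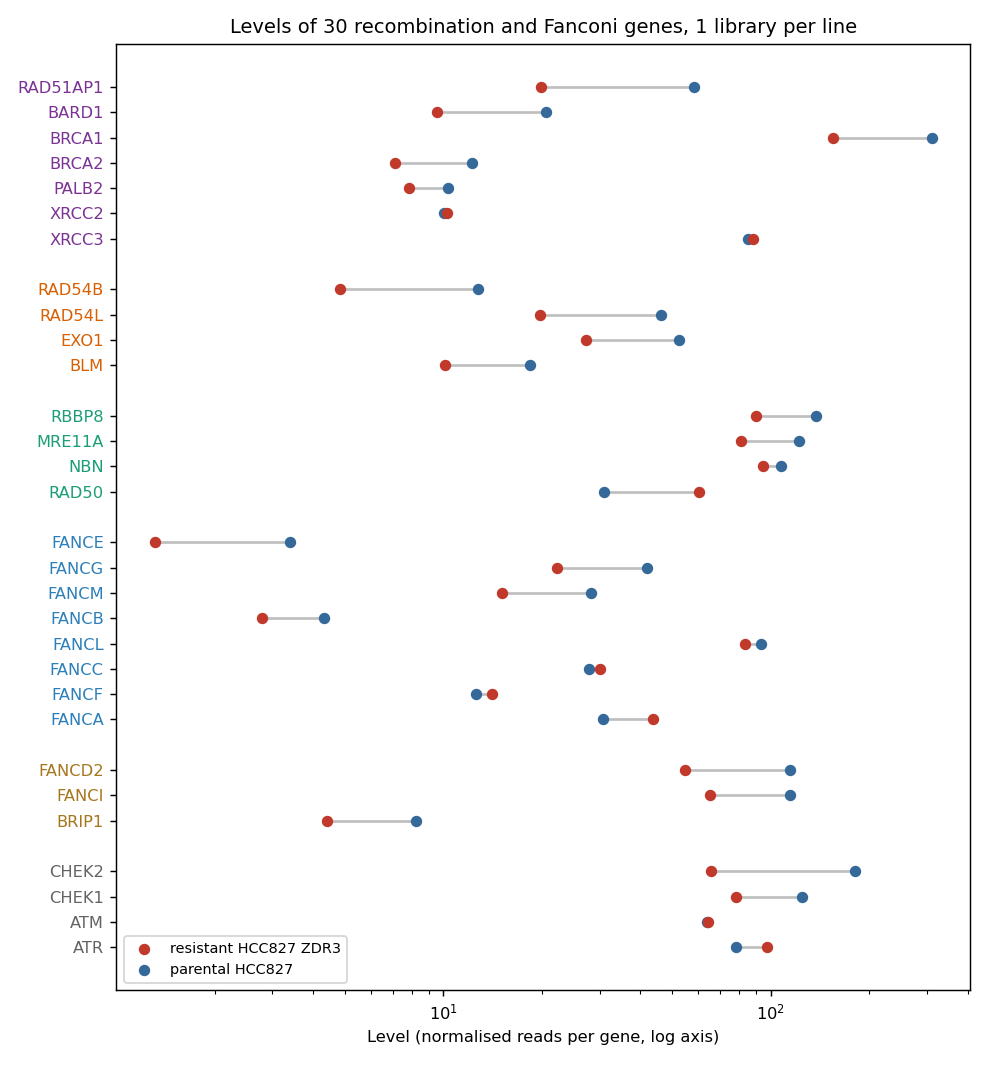
Levels of the 30 genes on a log axis in normalised reads per gene, not corrected for length, with the resistant library in red and the parental library in blue and genes grouped by role. BRCA1 was at 155 in resistant and 311 in parental cells, while ATM was at 64.1 and 63.9.

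The promoter windows of 4 genes are shown because they mark the range of the set: RAD51AP1 and CHEK2 were the lowest genes, BARD1 lay just past the 2-fold limit and RAD50 was the highest. Each runs from 250 bases before to 50 after the RefSeq start, read 5′ to 3′ on the gene's strand in GRCh38.p14. RAD51AP1 lies at chr12:4538640-4538939 (plus strand), CHEK2 at chr22:28741771-28742070 (minus strand), BARD1 at chr2:214809634-214809933 (minus strand) and RAD50 at chr5:132556727-132557026 (plus strand). Capitals mark matches, on either strand, to 4 short motifs: TTTGAA, the CHR element of genes expressed in G2 and mitosis, CCAAT, the NF-Y motif, and TTCCCGC and TTGGCGC, cores of E2F sites. No match overlapped another in these windows.
RAD51AP1: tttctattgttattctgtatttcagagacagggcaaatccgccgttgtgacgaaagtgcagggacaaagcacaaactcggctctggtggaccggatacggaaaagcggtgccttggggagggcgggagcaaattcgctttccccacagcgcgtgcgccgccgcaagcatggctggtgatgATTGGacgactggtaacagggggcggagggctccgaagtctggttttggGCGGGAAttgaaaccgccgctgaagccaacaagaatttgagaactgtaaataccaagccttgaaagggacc
CHEK2: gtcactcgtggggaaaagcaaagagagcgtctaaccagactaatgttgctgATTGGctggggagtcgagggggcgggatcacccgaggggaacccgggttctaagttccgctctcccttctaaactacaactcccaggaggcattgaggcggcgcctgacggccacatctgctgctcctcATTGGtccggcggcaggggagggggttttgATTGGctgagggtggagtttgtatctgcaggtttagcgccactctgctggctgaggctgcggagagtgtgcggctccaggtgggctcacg
BARD1: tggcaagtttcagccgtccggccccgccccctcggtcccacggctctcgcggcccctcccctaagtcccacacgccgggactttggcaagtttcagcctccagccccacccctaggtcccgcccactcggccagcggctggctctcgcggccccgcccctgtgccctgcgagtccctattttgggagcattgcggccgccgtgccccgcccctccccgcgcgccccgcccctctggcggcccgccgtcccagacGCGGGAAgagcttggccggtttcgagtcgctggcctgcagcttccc
RAD50: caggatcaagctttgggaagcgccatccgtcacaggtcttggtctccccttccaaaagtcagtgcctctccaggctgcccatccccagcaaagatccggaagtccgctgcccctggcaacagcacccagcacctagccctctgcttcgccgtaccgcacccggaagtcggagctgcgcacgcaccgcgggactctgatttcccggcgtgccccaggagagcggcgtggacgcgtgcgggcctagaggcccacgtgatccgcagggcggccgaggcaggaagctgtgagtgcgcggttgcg
RAD51AP1 held a CCAAT match and an E2F core, CHEK2 held 3 CCAAT matches, BARD1 held 1 E2F core and RAD50 held none of the motifs.

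The loaders and mediators of strand invasion were lower in part. RAD51AP1 (ENSG00000111247), which promotes invasion of the sister strand, was at 19.8 in resistant and 58.4 in parental cells. RAD51AP1 was thus 2.95-fold lower by the plain ratio, with a log2 ratio of -1.51 after adding 1 unit. Its ratio of 0.339 had a counting interval of 0.325 to 0.354. BRCA1 (ENSG00000012048), which opens the way for resection and recruits PALB2, was at 155 in resistant and 311 in parental cells, a log2 ratio of -0.997 that fell just short of the 2-fold limit. The plain ratio of BRCA1, without the added unit, was 0.499. Its RING partner BARD1 (ENSG00000138376) was at 9.56 in resistant and 20.5 in parental cells, just past that limit at -1.03. Both subunits of the ubiquitin ligase thus stood lower by nearly the same factor, and BARD1 made up 8.06% of the summed per-kilobase level of the pair in resistant and 8.59% in parental cells. BRCA2 (ENSG00000139618), a mediator that acts on resected single-stranded DNA, was at 7.12 in resistant and 12.2 in parental cells (-0.70). PALB2, the bridge between BRCA1 and BRCA2, was at 7.82 in resistant and 10.3 in parental cells (-0.36). XRCC2 and XRCC3, subunits of recombination mediator complexes, had almost equal levels in the 2 libraries. XRCC2 was at 10.2 in resistant and 10.1 in parental cells, and its interval of 0.946 to 1.097 included 1. XRCC3 was at 88.0 in resistant and 85.2 in parental cells (0.05). Of its exon bases 45.3% overlap KLC1 on the other strand, and the strand setting of the counting is not known, so reads of KLC1 (571 in resistant and 438 in parental cells) could be among those of XRCC3.

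The motors, helicases and nucleases of strand exchange were all lower, and each of the 4 was at least 1.5-fold lower, against 18.7% of all expressed genes. RAD54B (ENSG00000197275), a translocase that moves along the joined strands, was at 4.83 in resistant and 12.7 in parental cells, a log2 ratio of -1.24, and the plain ratio of 0.379 had an interval of 0.347 to 0.415. Its relative RAD54L (ENSG00000085999) was at 19.8 in resistant and 46.2 in parental cells (-1.18). Exons of LRRC41 on the other strand cover 18.0% of those of RAD54L, and LRRC41 had a log2 ratio of -0.13. EXO1, the nuclease that extends resection, was at 27.2 in resistant and 52.5 in parental cells (-0.92). The RecQ helicase BLM, which takes joined molecules apart without crossing over, was at 10.1 in resistant and 18.4 in parental cells (-0.80).

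The genes of end sensing and first resection did not move together. MRE11A, the nuclease of the MRN complex, was at 81.3 in resistant and 122 in parental cells (-0.58), and RBBP8, the CtIP protein that starts its cut, was at 89.9 in resistant and 138 in parental cells (-0.61). NBN, which ties the complex to ATM, was at 94.8 in resistant and 108 in parental cells (-0.18). RAD50 (ENSG00000113522), the ATPase that tethers the ends, was higher, at 60.3 in resistant and 30.8 in parental cells, with a log2 ratio of 0.95, and its plain ratio of 1.96 had an interval of 1.89 to 2.03. RAD50 was thus the one subunit of the complex with a higher level in resistant cells. Per kilobase of exon it made up 19.4% of the summed level of the complex in resistant and 8.84% in parental cells, and MRE11A made up 28.7% in resistant and 38.5% in parental cells.

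The Fanconi core complex split. FANCE, which docks the substrate, had 181 reads in resistant and 484 in parental cells. Its plain ratio of 0.388 had an interval of 0.325 to 0.461, while the log2 ratio after adding 1 unit was -0.92. FANCG, a scaffold subunit, was at 22.2 in resistant and 41.8 in parental cells (-0.88), and FANCM, the translocase that anchors the complex to DNA, was at 15.05 in resistant and 28.2 in parental cells (-0.86). These 3 of the 8 genes were at least 1.5-fold lower, against 18.7% of all expressed genes. FANCB, of the catalytic module, was at 2.78 in resistant and 4.30 in parental cells, with a log2 ratio of -0.49 after adding 1 unit. By the plain ratio of 0.648, with an interval of 0.569 to 0.737, FANCB was 1.54-fold lower. The ubiquitin ligase FANCL was at 83.7 in resistant and 93.4 in parental cells (-0.16), with 26.6% of its exon bases overlapped by VRK2 (log2 ratio -0.28) on the other strand. The substrate-docking subunits FANCC (0.10) and FANCF (0.15) were near equal. FANCA, a scaffold subunit, was at 43.6 in resistant and 30.8 in parental cells, a ratio of 1.42 with an interval of 1.36 to 1.47. It shares 22.4% of its exon bases with ZNF276 on the other strand, which was at 58.2 in resistant and 31.3 in parental cells.

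The targets of the core complex, FANCD2 and FANCI, and the downstream helicase BRIP1 were lower. FANCD2 (ENSG00000144554), the subunit whose ubiquitin mark starts crosslink repair, was at 54.9 in resistant and 115 in parental cells, a log2 ratio of -1.05, and the plain ratio of 0.478 had an interval of 0.465 to 0.491. Its partner FANCI was at 65.2 in resistant and 114 in parental cells (-0.80). BRIP1, the helicase that binds BRCA1, was at 4.42 in resistant and 8.22 in parental cells (-0.77). All 3 genes were at least 1.5-fold lower, against 18.7% of all expressed genes.

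Among the checkpoint kinases the effectors were lower and the sensors were not. CHEK2 (ENSG00000183765), the kinase activated by ATM, was at 65.9 in resistant and 181 in parental cells, a log2 ratio of -1.44. By the plain ratio CHEK2 was 2.74-fold lower, and that ratio of 0.365 had an interval of 0.356 to 0.374. GENCODE release 29 lists 4 pseudogenes under the name of CHEK2, and 1 each under those of RAD51AP1, FANCD2, MRE11A and RBBP8, so reads of these genes could be shared with near-identical copies. CHEK1 (ENSG00000149554), the kinase activated by ATR, was at 78.6 in resistant and 125 in parental cells (-0.66). ATM was at 64.1 in resistant and 63.9 in parental cells, with an interval of 0.974 to 1.03 that included 1. ATR was at 97.4 in resistant and 78.3 in parental cells (0.31).

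**Figure D2:**
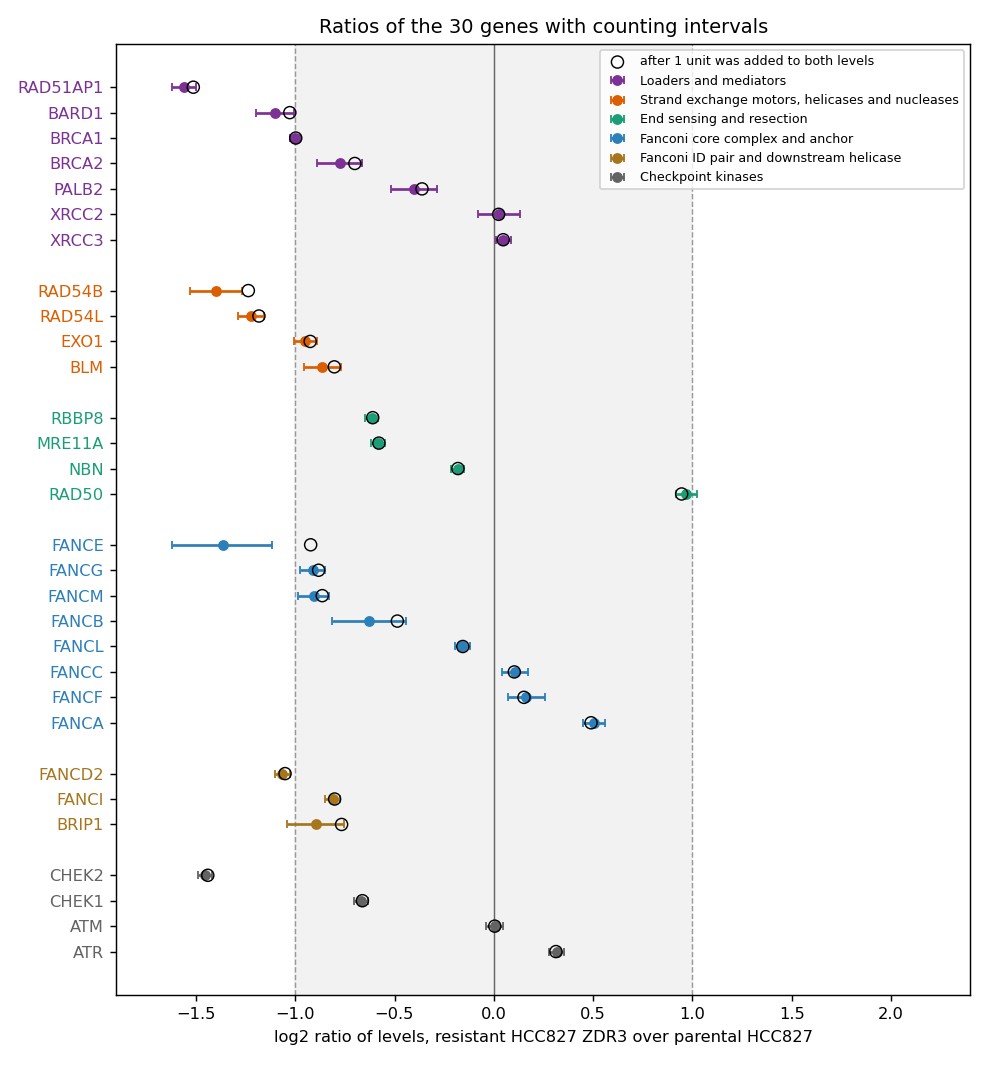
Filled points give the log2 ratio of unadjusted levels, resistant over parental, with 95% counting intervals, and open circles give it after 1 unit was added to both levels; dashed lines mark 2-fold. By the open circles RAD51AP1 (-1.51) and CHEK2 (-1.44) lay lowest and RAD50 (0.95) highest.

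Counting error was small beside the larger of these differences, but not for genes near equality such as ATM, XRCC2, XRCC3 and FANCC. The intervals of 28 of the 30 genes excluded 1, and the widest, that of FANCE, reached 18.9% to one side. Reads per gene ran from 181 to 21342 in resistant and from 484 to 44376 in parental cells. Spread between cultures is not known, so an interval that excludes 1 does not show a difference between the lines. Per kilobase of exon the order of the genes also shifted. FANCL was the most abundant in resistant cells, at 49.2 per kilobase, and CHEK2 the most abundant in parental cells, at 78.6 per kilobase. RAD51AP1 took place 11 of 30 in resistant and place 5 in parental cells, and RAD50 place 14 in resistant and place 21 in parental cells.

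Other genes of the pathway went both ways. They came from lists drawn up by function, but members and lists were chosen with earlier results of these data known. Their contrast with the set is thus a description only. The counts lay near the 9.68% of all expressed genes at least 2-fold lower and the 10.6% at least 2-fold higher, or below them. Of 13 expressed paralog and mediator genes outside the set, 1 lay at least 2-fold lower and 1 lay at least 2-fold higher; their median was -0.007. SFR1, a cofactor of strand exchange, was at 5.60 in resistant and 16.9 in parental cells (-1.44). The helicase HELQ was higher, at 15.2 in resistant and 5.99 in parental cells (1.21). Of 17 further genes for joint molecules and resection, 2 (11.8%) passed the 2-fold limit, both downward. They were C12orf48 (-1.39), whose product restrains recombination, and EME1 (-1.14), a subunit of a nuclease that cuts joined molecules. Among 16 Fanconi partners 0 passed the 2-fold limit in either direction, and the median was 0.02. The largest values there were those of C19orf40 (-0.95) and C17orf70 (0.89), both associated with the core complex. Of 15 genes of BRCA1 complexes and of ubiquitin signalling at breaks, 2 were at least 2-fold lower, MDC1 (-1.18) and USP28 (-1.13), and 1 at least 2-fold higher, FAM175A (1.61), a subunit of the BRCA1-A complex.

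Cell cycle genes were set beside the recombination genes, since their transcription follows S and G2 phase. All 35 expressed G2 and mitosis genes had ratios below 0, with 23 (65.7%) at least 2-fold lower, 33 at least 1.5-fold lower and a median of -1.08. The topoisomerase TOP2A was at 652 in resistant and 2403 in parental cells (-1.88), and CDK1 was at 77.8 in resistant and 223 in parental cells (-1.51). Of 34 expressed S phase and replication genes, 1 passed the 2-fold limit downward and 1 upward, 10 were at least 1.5-fold lower, and the median was -0.36. These were CDC6, a loader of the replicative helicase (-1.19), and POLA1, the polymerase that starts new strands, at 110 in resistant and 13.9 in parental cells (2.90). The median of the recombination and Fanconi genes, -0.68, lay between the medians of these lists. Of 20 genes of the replication stress checkpoint 4 passed the 2-fold limit downward and 1 upward, and their median was -0.44. At least 2-fold lower were 20% of the checkpoint list, 20% of the recombination and Fanconi set and 2.94% of the S phase list. The share over all expressed genes was 9.68%, and 10.6% were at least 2-fold higher. At least 1.5-fold lower were 35%, 56.7% and 29.4% of these lists in the same order, against 18.7% of all expressed genes. The part of the cell cycle in the values of the recombination genes was not tested.

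**Figure D3:**
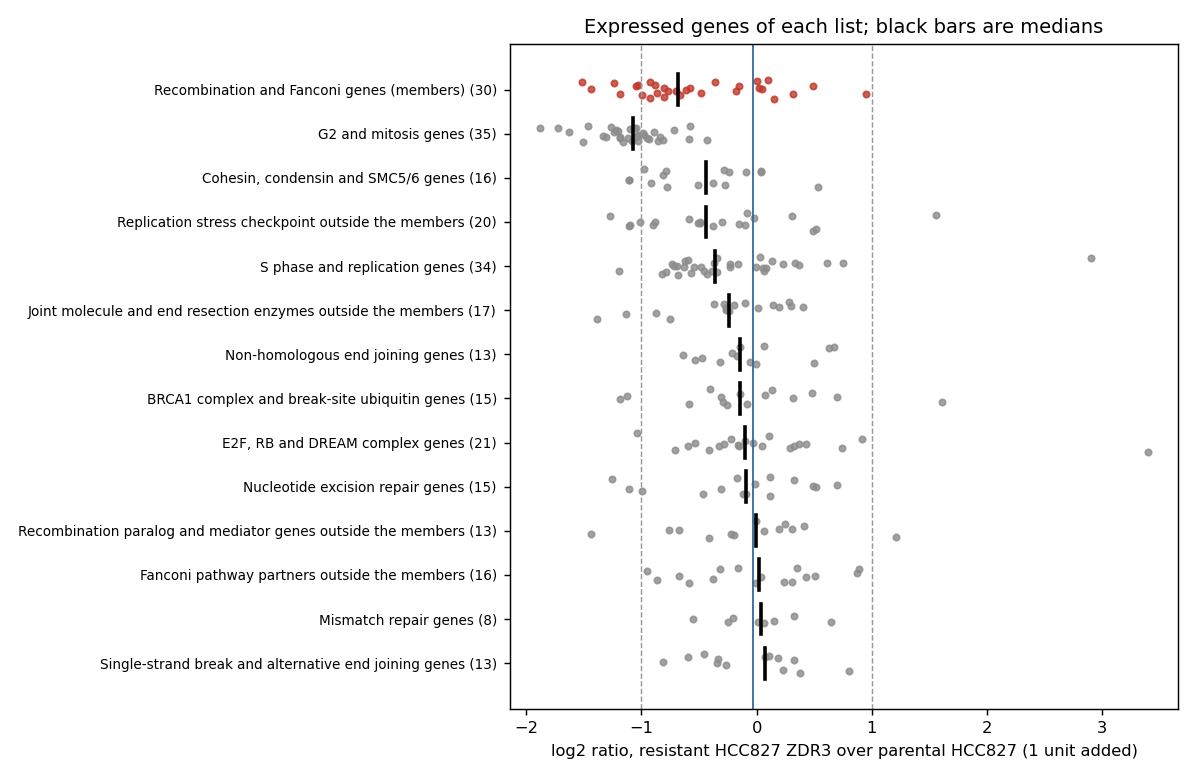
Each point is the log2 ratio of 1 expressed gene, resistant over parental after adding 1 unit, black bars are list medians, the blue line is the median of all expressed genes (-0.03) and dashed lines mark 2-fold. The recombination and Fanconi genes (top, red) had a median of -0.68, and the G2 and mitosis genes one of -1.08.

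The genes lie on 18 chromosomes, and for each a local median was taken over the log2 ratios of 20 expressed neighbours, 10 to either side. These medians ran from -0.63 to 0.61, with 15 of the 30 below 0. For some genes the surroundings moved with the gene. The neighbours of RAD54L on chromosome 1 had a median of -0.63, with 18 of 20 below 0, and RAD54L lay 0.55 below that median. The neighbours of FANCA on chromosome 16 had a median of 0.61, with 19 of 20 above 0, and FANCA lay below it by 0.12. The neighbours of RAD50 on chromosome 5 had a median of 0.43, with 17 of 20 above 0, and RAD50 exceeded it by 0.51. Neighbours also stood lower around the lower genes FANCE (median -0.46), FANCG (-0.38), BARD1 (-0.34) and BLM (-0.32). Other lower genes did not follow their surroundings, such as MRE11A (neighbours at 0.24) and FANCI (0.16). RAD51AP1 on chromosome 12 lay 1.93 below neighbours with a median of 0.42, and CHEK2 on chromosome 22 lay 1.56 below neighbours with a median of 0.12. With the neighbours subtracted, the set had a median of -0.51, and 4 of the 30 genes, RAD51AP1, CHEK2, RAD54B and EXO1, were at least 2-fold lower, against 8.96% of all genes after the same subtraction, so that this count lay near the background. At least 1.5-fold lower were 12 of the 30, against 17.2% of all genes. On chromosome 11 the 4 genes of the set had separate values, 0.15 for FANCF, -0.58 for MRE11A, 0.005 for ATM and -0.66 for CHEK1.

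**Figure D4:**
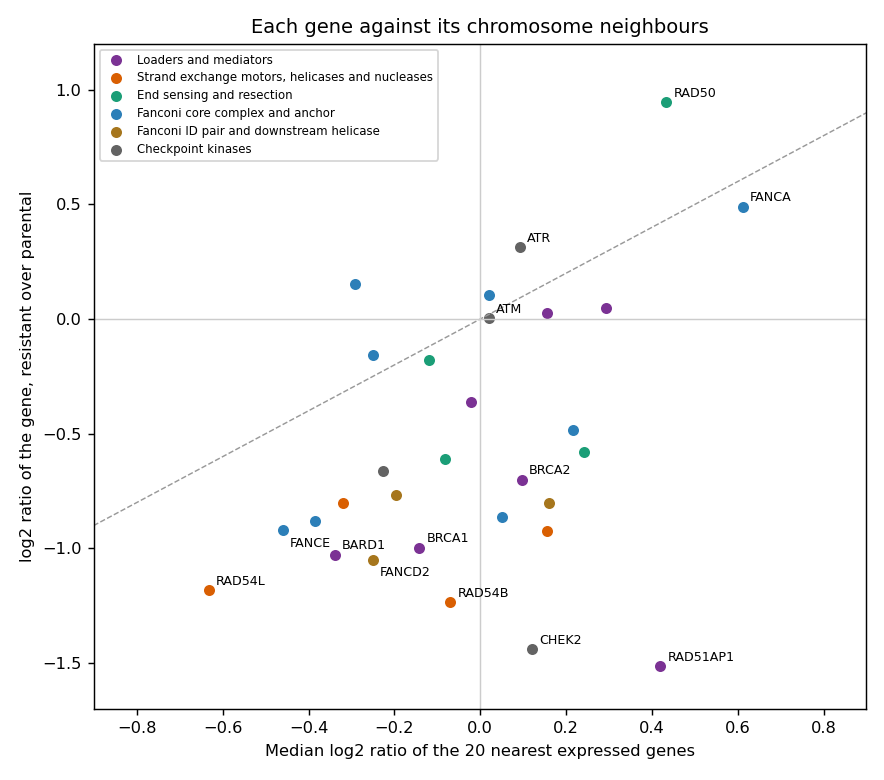
The log2 ratio of each gene is plotted against the median of its 20 nearest expressed genes, both resistant over parental, with equality as a dashed line and colours for the roles. FANCA lies near the line, and RAD51AP1 lies 1.93 below it.

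Genes that start back to back with a member were compared with it, since such pairs can share a promoter. Among the members with a RefSeq window, 8 pairs had an expressed partner that starts within 1000 bases on the other strand, and the member had the lower log2 ratio in 7 of them. BRCA1 enters with both NBR1 and NBR2, and XRCC3 counts as lower at 0.05, since ZFYVE21 was at 0.80. The set was chosen with earlier results of these data known, and its median was -0.68 against -0.03 for all expressed genes. A lower member is therefore likely in any such pair, and the count says nothing about shared promoters. CHEK2 and HSCB, a chaperone of iron-sulfur cluster assembly, start 212 bases apart, and HSCB was at 9.66 in resistant and 8.62 in parental cells (0.15). BRCA1 and the noncoding gene NBR2 start 193 bases apart, and NBR2 was at 20.7 in resistant and 19.4 in parental cells (0.09). An upstream start listed for BRCA1 lies 82 bases from that of NBR1, which had a log2 ratio of -0.65. The exception was ATM, at 0.005 beside NPAT, a regulator of histone genes, at -0.25.

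**Figure D5:**
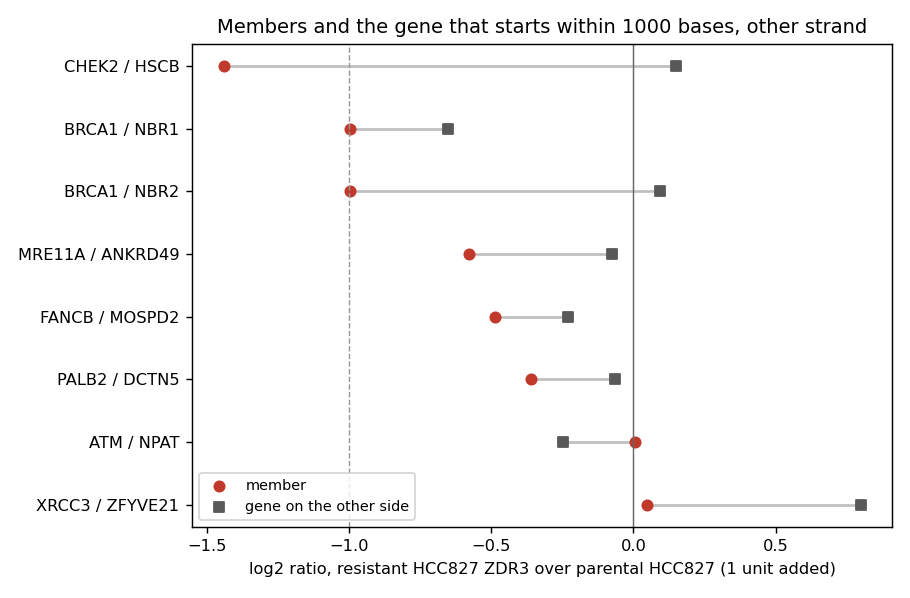
Log2 ratios, resistant over parental after adding 1 unit, of members (red circles) and of the gene starting within 1000 bases on the other strand (grey squares), joined by lines. CHEK2 lies at -1.44 and HSCB at 0.15.

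RefSeq windows were matched for 27 of the 30 genes, with 35 windows in all, since some genes have several. The E2F core TTCCCGC stood in the windows of 13 of the 27 genes and in 42.9% of their windows, against 6.55% of all 35116 windows and 9.24% of those of expressed genes. Either E2F core was held by 14 genes. Of the 15 matched genes at least 1.5-fold lower, 9 held one, among them BRCA1, BARD1, RAD51AP1, RAD54L and FANCD2, and of the other 12 it was 5, among them XRCC2 and XRCC3. CCAAT stood in 51.4% of the windows of the set, 34.6% of all windows and 34.6% of those of expressed genes. TTTGAA stood in 8.57%, 15.2% and 10.6%. A match is a run of letters and does not show that a factor binds there.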

How the data were processed

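Polyadenylated RNA of 1 resistant and 1 parental culture was sequenced on an Illumina HiSeq, per the labels' protocols. The submitters' processing notes name TopHat. For the counting tool, strand setting, TopHat version and genome build, nothing is given in the sources used here. Of the labels, the growth protocol covers isotope labelling medium, and its use for these cultures is unclear.

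The deposited table gives log2 values, and its name calls them RPKM. Back-transformed, they were whole multiples of 1 step per library, so they are reads times 1 factor and not divided by length. Of genes with 1 to 100000 reads 100% were whole within 0.1 read. The 3573 (resistant) and 3504 (parental) genes at the lowest value, 0.9 reads, were taken as 0. The column ending in Prim was read as the parental line.

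The pseudocount of 1 and the minimum level of 1 act on levels uncorrected for length. There was no test. The design had been written for linear values and was applied after back-transformation. The members and lists were chosen with earlier results of these data known. Of 269 list entries 268 were found, and 1 further gene is not reported here. All members are named, and from each of the 13 other lists up to 4 genes with the largest absolute log2 ratio. Positions, merged exons of basic transcripts and overlaps came from GENCODE release 29 by Ensembl identifier, and promoters from RefSeq (GRCh38.p14) by symbol; neither need be the authors' annotation. Motif shares count windows. Alternatives were other pseudocounts, minimum levels and scalings and, for the set and all genes but not the other lists, subtraction of neighbours. Software was Python 3.11.15, pandas 2.3.3 and scipy 1.17.1.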

Additional observations from a re-analysis of the deposited data

How the results depend on the processing

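No paired analysis was possible because each group holds 1 library, and no replicate could be left out. Over 8 alternatives the number of genes of the set at least 2-fold lower ran from 4 to 8, and at least 1.5-fold lower from 12 to 18. At 2-fold it was 8 with a pseudocount of 0.1, which added BRCA1 and FANCE, against 11.4% of all genes, and 4 with a pseudocount of 5 (6.28% of all genes), with upper quartiles set equal (8.90%) and with neighbours subtracted (8.96%). At 1.5-fold it was 18 with a pseudocount of 0.1, against 20.6% of all genes, and 12 with neighbours subtracted, against 17.2%. RAD51AP1 and CHEK2 were at least 2-fold lower in every one of these settings. With upper quartiles set equal 1 gene, RAD50, was at least 2-fold higher. With neighbours subtracted 0 genes were at least 1.5-fold higher. The median of the set was -0.53 with a pseudocount of 5 and -0.51 with neighbours subtracted, and less the median of all genes it was -0.50 with a pseudocount of 5. For 25 genes the sign was the same in every setting that counted them, which for FANCB and FANCE left out the minimum level of 5; XRCC2, XRCC3, FANCA, FANCL and ATM took both signs, each with neighbours subtracted. The scalings moved the median of all genes by at most 0.07.

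Neighbours were not subtracted for the other lists. Under the remaining alternatives 266 of their 273 values stayed within 1.5 times or 0.14 of the main one. With a pseudocount of 5, genes at least 2-fold lower numbered 1 of the nucleotide excision, 0 of the S phase, 1 of the cohesin and 0 of the E2F list, and 0 paralog and mediator genes were at least 2-fold higher. With a pseudocount of 0.1, 1 Fanconi partner was at least 2-fold lower, and with upper quartiles set equal 0 of the E2F list. Low genes such as FANCE and FANCB are limited by depth and by the pseudocount.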

Other observations

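Repair pathways other than recombination had medians near that of all expressed genes, of which 9.68% passed the 2-fold limit downward and 10.6% upward. Of 13 non-homologous end joining genes 0 passed the 2-fold limit in either direction, and the median was -0.14; NHEJ1 (0.67) and DCLRE1C (-0.64) had the largest values. Of 13 genes of single-strand break repair and alternative end joining 0 passed it, with a median of 0.07, PARP2 at -0.81 and PARP3 at 0.80. Of 8 mismatch repair genes 0 passed it, with a median of 0.04. Of 15 nucleotide excision repair genes 2 were at least 2-fold lower, the ligase LIG1 (-1.26) and the transcription-coupled repair gene ERCC6 (-1.11), and the median was -0.09.

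Among 21 E2F, RB and DREAM complex genes the repressor E2F7 was at 252 in resistant and 23.0 in parental cells, a ratio of 10.96 with a counting interval of 10.6 to 11.4, while its relative E2F8 was at 13.3 in resistant and 28.3 in parental cells (-1.04). The median of that list was -0.10. Of 16 cohesin, condensin and SMC5/6 genes 2 (12.5%) were at least 2-fold lower, near the 9.68% of all expressed genes. They were ESCO2 (-1.11) and STAG2, at 518 in resistant and 1115 in parental cells (-1.10). At least 1.5-fold lower were 7 (43.8%), against 18.7% of all expressed genes, and the median of the list was -0.44. Whether E2F7 has a part in the levels of the recombination genes was not tested.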
